A study of Mus musculus with 11 samples.

Results

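The immunoglobulin gene segments were followed across injured and sham-operated aortic valves of aging and young mice. Their members were all rows of the deposited count table that are annotated as immunoglobulin constant (C), variable (V), joining (J) or diversity (D) segments, without pseudogenes, and that held at least 1 count over the 11 libraries. This gave 112 members out of 268 such rows, in a table of 46983 genes. By class, 11 of 13 constant genes, 86 of 222 V segments, 12 of 14 J segments and 3 of 19 D segments were counted. By locus, 47 members lie in the heavy chain locus on chromosome 12, 57 in the kappa locus on chromosome 6 and 8 in the lambda locus on chromosome 16 (mm10 build).

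All mice were wild type, and each library came from the valve of 1 mouse, collected 48 hours after surgery. The groups were aging injured (mice of 16 to 18 months, wire injury of the valve, n = 2), aging sham (the same ages, sham surgery, n = 3), young injured (mice of 3 to 4 months, wire injury, n = 3) and young sham (n = 3). The strain is not given in the sources used here, and no group was without surgery, since every control mouse had sham surgery. The comparisons asked what injury changed at each age and what age changed under each surgery.

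An antibody consists of heavy and light chains. In a developing B cell a V segment is joined to a J segment, in the heavy chain with a D segment between them, and the message then runs on into a constant gene, so that each B cell clone reads out its own V, D and J segments. Heavy chain constant genes define the class: Ighm gives IgM, Ighd gives IgD, the Ighg genes IgG, Ighe IgE and Igha IgA. Light chains carry the kappa constant gene Igkc or a lambda constant gene. Plasma cells make these messages in bulk, and naive B cells carry IgM and IgD on their surface. In the mouse, B-1 cells are a self-renewing subset, best known from the body cavities, and one of their recurrent receptors pairs Ighv12-3 with Igkv4-91 and binds phosphatidylcholine.

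The segments on which the V counts mainly fell are shown by the last 150 coding bases of the V exon, as read from GENCODE mouse release 21 on GRCm38, the assembly that mm10 names. Capitals mark the codons for tyrosine, then tyrosine or phenylalanine, then the conserved cysteine that opens the third hypervariable loop, and the bases after them are the germline start of that loop. Igkv4-91 (chr6:68768555-68768704, minus strand) and Ighv12-3 (chr12:114366521-114366670, minus strand) led the kappa and heavy chain V counts. Igkv3-2 (chr6:70698918-70699067, plus strand) and Iglv2 (chr16:19260401-19260550, minus strand) followed in 1 aging injured valve. Igkv12-46 (chr6:69764523-69764672, minus strand) and Ighv5-4 (chr12:113597446-113597595, minus strand) are shown because each held all V counts of 1 library.
Igkv4-91: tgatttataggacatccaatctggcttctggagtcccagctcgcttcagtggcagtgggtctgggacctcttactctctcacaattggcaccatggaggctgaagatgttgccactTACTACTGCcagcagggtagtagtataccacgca
Ighv12-3: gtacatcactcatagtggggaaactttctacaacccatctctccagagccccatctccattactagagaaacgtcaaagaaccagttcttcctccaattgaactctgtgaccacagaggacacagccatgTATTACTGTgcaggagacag
Igkv3-2: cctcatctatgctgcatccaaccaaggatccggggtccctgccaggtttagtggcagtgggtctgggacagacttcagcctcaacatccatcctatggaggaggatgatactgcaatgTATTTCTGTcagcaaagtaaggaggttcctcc
Iglv2: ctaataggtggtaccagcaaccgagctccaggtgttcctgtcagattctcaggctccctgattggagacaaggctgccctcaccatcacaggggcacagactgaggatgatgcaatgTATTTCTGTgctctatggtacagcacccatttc
Igkv12-46: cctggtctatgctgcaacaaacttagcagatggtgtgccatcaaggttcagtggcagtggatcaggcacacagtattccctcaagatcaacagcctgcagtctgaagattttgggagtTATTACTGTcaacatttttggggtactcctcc
Ighv5-4: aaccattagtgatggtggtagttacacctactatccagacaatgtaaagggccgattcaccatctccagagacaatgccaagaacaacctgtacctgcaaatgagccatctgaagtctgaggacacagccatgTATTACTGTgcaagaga
A tyrosine, tyrosine or phenylalanine, cysteine run was found within the last 60 bases of 83 of the 86 counted V segments.

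The J segments are short, and those with the most counts in each locus are shown whole, with capitals on the tryptophan (heavy chain) or phenylalanine (light chain), glycine, any residue, glycine codons that close the same loop. They are Ighj1 (chr12:113429781-113429833, minus strand), Igkj2 (chr6:70722916-70722954, plus strand), Igkj5 (chr6:70723886-70723923, plus strand), Iglj2 (chr16:19200198-19200235, minus strand) and Iglj3 (chr16:19067041-19067078, minus strand). Ighd2-4 (chr12:113470694-113470710, minus strand) is the D segment with the most counts.
Ighj1: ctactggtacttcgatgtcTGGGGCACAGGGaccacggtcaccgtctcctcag
Igkj2: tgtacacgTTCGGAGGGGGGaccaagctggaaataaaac
Igkj5: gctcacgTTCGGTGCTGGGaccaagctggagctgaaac
Iglj2: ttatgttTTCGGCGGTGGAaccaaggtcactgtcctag
Iglj3: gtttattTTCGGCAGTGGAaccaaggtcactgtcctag
Ighd2-4: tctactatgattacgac
The tryptophan form was found in 4 and the phenylalanine form in 7 of the 12 counted J segments.

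Library totals ran between 27124000 and 36353474 counts. Valve genes were present throughout, with Col3a1, a fibrillar collagen of valve interstitial cells, at 1702 to 5732 CPM (counts scaled to library size with TMM factors). Cardiac muscle RNA was present as well, with Myh6, the cardiac myosin heavy chain, at 2864 to 11672 CPM. Both aging injured libraries and young sham 1 held counts for 18641 to 19015 genes, against 20411 to 22533 genes in the other 8. By Xist and Y-linked genes, 2 of 2 aging injured, 2 of 3 aging sham, 2 of 3 young injured and 1 of 3 young sham mice were female.

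Immunoglobulin counts were few in most valves and differed widely between mice of the same group. The 112 members held 15787 counts in all, of which 7541 came from aging injured 2. Summed over all members, aging injured valves had 18.1 and 220 CPM, aging sham valves 30.0, 33.1 and 74.5 CPM, young injured valves 15.1, 15.8 and 11.3 CPM, and young sham valves 17.4, 20.8 and 28.1 CPM. Aging injured 2 stood far above every other library, and aging injured 1 lay below all 3 aging sham valves and inside the range of the young sham valves. Exact 95% Poisson intervals, which cover counting error only, were narrow beside this spread, at 16.6 to 19.8 CPM for aging injured 1 and 215 to 225 CPM for aging injured 2.

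**Figure D1:**
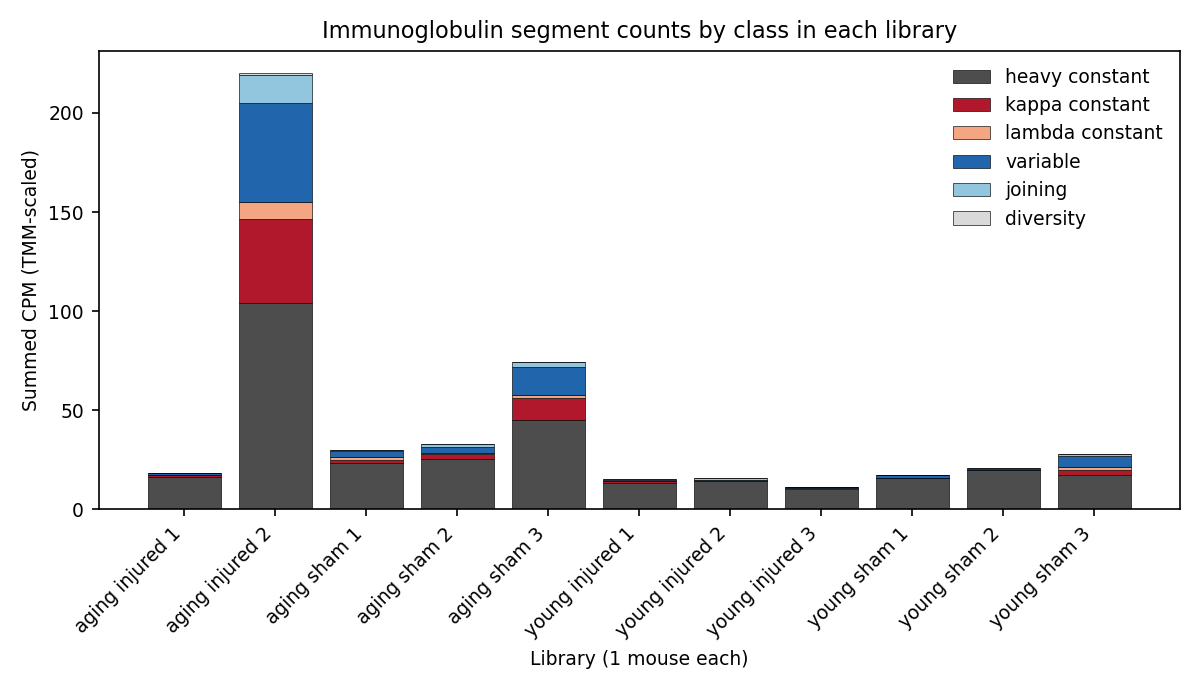
Summed CPM of the immunoglobulin members in each of the 11 libraries, stacked by class (heavy, kappa and lambda constant genes, then V, J and D segments of all loci). Aging injured 2 reaches 220 CPM, aging sham 3 reaches 74.5 CPM, and the other libraries lie between 11.3 and 33.1 CPM.

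Group means of the sum were 119 ± 143 CPM in aging injured valves (SD, n = 2) and 45.9 ± 24.8 CPM in aging sham valves (SD, n = 3), and these groups overlapped. Young injured valves averaged 14.1 ± 2.42 CPM and young sham valves 22.1 ± 5.48 CPM (SD, n = 3 each), and here all 3 injured valves lay below all 3 sham valves. The log2 ratio of the means was 1.38 for injury in aging valves and -0.65 for injury in young valves. For age it was 3.08 in injured valves, where the lowest aging valve (18.1 CPM) was above the highest young valve (15.8 CPM), and 1.05 in sham valves, where the lowest aging valve (30.0 CPM) was above the highest young valve (28.1 CPM). Without aging injured 2 the ratio for injury in aging valves became -1.34, and that for age in injured valves 0.37. Sums over the members were not tested, because the members were chosen with results of these data known. In whole valves, more cells of a type and more RNA per cell cannot be told apart.

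Constant genes carried most of the counts. V segments took 22.6% of the member counts in aging injured 2, 20.9% in young sham 3 and 19% in aging sham 3, and 0.36% to 9.58% in the other 8 libraries. Constant genes took 97.1% and 70.4% of the member counts in aging injured valves, 88.1%, 85.3% and 77.6% in aging sham valves, 95.9%, 95.2% and 97.2% in young injured valves and 91.8%, 96.9% and 75.6% in young sham valves. Summed V segments stood at 0.53 and 49.9 CPM in aging injured valves, 2.82, 3.18 and 14.1 CPM in aging sham valves, 0.51, 0.057 and 0.22 CPM in young injured valves and 1.36, 0.46 and 5.87 CPM in young sham valves. Young injured valves thus held 19, 2 and 7 V counts, which leaves little to describe in them. Over V segments alone the log2 ratio of group means was -3.28 for injury in young valves and 6.58 for age in injured valves. These ratios rest on single libraries: without young sham 3 that for injury in young valves was -1.79, and without aging injured 2 that for age in injured valves was 1.02.

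Ighm, the constant gene of IgM, was the member with the most counts in every library. It had 453 and 3465 counts in aging injured valves, 608, 732 and 1138 in aging sham valves, 441, 474 and 282 in young injured valves and 479, 507 and 332 in young sham valves. Scaled, its level was 16.1 and 101 CPM in aging injured, 16.8, 22.6 and 40.3 CPM in aging sham, 11.9, 13.5 and 8.86 CPM in young injured valves and 13.9, 15.5 and 13.1 CPM in young sham valves. Every aging valve was above every young valve, although aging injured 1 and aging sham 1 cleared the highest young valve (15.5 CPM) by little. Igkc, the kappa light chain constant gene, had 36 and 1458 counts in aging injured valves, 66, 74 and 313 in aging sham valves, 38, 25 and 8 in young injured valves and 10, 3 and 56 in young sham valves. Its level was 1.28 and 42.6 CPM in aging injured valves against 1.03, 0.71 and 0.25 CPM in young injured valves, and these groups did not overlap. In aging sham valves it was 1.82, 2.28 and 11.1 CPM and in young sham valves 0.29, 0.092 and 2.21 CPM, where young sham 3 overlapped the aging range. As a ratio of summed counts scaled by library size, Igkc was 35.1 times higher in aging than in young injured valves (95% interval 27.7 to 45.2) and 6.26 times higher in aging than in young sham valves (4.85 to 8.19), with intervals that cover counting error only and not the spread between mice. Of the 1494 aging injured counts 1458 came from aging injured 2, without which the first ratio was 1.87 (1.22 to 2.84). The sham ratio was 2.73 (2.03 to 3.70) without aging sham 3 and 24.1 (14.0 to 45.7) without young sham 3.

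Per kilobase of exon, which allows levels of different genes to be set side by side, Igkc exceeded Ighm in 1 of 11 libraries. In aging injured 2 Igkc stood at 80.1 and Ighm at 53.7 CPM per kilobase. In aging sham 3 the levels were 20.8 for Igkc and 21.3 CPM per kilobase for Ighm. In the other 9 libraries Igkc lay between 0.17 and 4.29 and Ighm between 4.70 and 11.97 CPM per kilobase. The number of Ighm counts per Igkc count ran between 2.38 in aging injured 2 and 169 in young sham 2. Ighm was thus counted also in valves where light chain counts were close to 0. Young sham 1 had 479 Ighm counts beside 10 Igkc counts, 0 lambda constant counts and 0 counts of Ms4a1 and Cd79a, which encode surface proteins of B cells. Other B lineage genes were counted there, with Cd79b at 9 and Spib at 30, and of the plasma cell list Mzb1 stood at 46, Pou2af1 at 29 and Eaf2 at 82 counts.

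Ighd and Ighg2c had other patterns than Ighm. Ighd, the constant gene of IgD, had 0 and 10 counts in aging injured valves, 40, 65 and 82 in aging sham valves, 11, 24 and 3 in young injured valves and 0, 12 and 58 in young sham valves. In aging valves every injured library lay below every sham library, and in young valves the groups overlapped. The libraries with 0, 10 and 0 counts are the 3 in which the fewest genes were counted, and the part of gene detection in the Ighd values was not tested. As a share of Ighd and Ighm counts together, Ighd took 0% and 0.29% in aging injured valves and 6.17%, 8.16% and 6.72% in aging sham valves. It took 2.43%, 4.82% and 1.05% in young injured valves and 0%, 2.31% and 14.9% in young sham valves, so that mice of 1 group differed widely. Exact binomial 95% intervals of the aging injured shares, for counting error only, reached 0.81% and 0.53%. Aging injured 2 thus combined the highest Ighm count of the series with 10 Ighd counts. Ighg2c, an IgG constant gene, had 7 and 47 counts in aging injured valves, 197, 19 and 43 in aging sham valves, 40, 7 and 38 in young injured valves and 61, 135 and 45 in young sham valves. All young injured valves were below all young sham valves in CPM, and in aging valves the groups overlapped.

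The remaining constant genes were sparse. Ighg3 had 22 counts in aging injured 2, 7 and 9 in aging sham 2 and 3 and 4 in young sham 3, and Ighg2b had 15 counts in aging injured 2 and 2 in aging sham 3, with 0 elsewhere for both. Igha, the constant gene of the mucosal class IgA, had 0 counts in aging injured valves, 1, 5 and 7 in aging sham valves, 5 in young injured 1 and 0 in the other young valves. Ighe was counted only in young sham 3, at 8 counts, and Ighg1 and Iglc4 had 0 counts in all 11 libraries. Among lambda constant genes Iglc2 had 0 and 202 counts in aging injured valves, 4, 10 and 15 in aging sham valves, 0, 0 and 6 in young injured valves and 0, 0 and 18 in young sham valves. Iglc3 had 0 and 91 in aging injured, 9, 4 and 18 in aging sham, 2, 0 and 9 in young injured valves and 0, 0 and 17 in young sham valves. Iglc1 had 34 counts in aging sham 1 and 0 to 6 in every other library. Coding sequences of Iglc2 and Iglc3 were 96.2% identical, so counts of this pair are less certain than their sum. Of the constant light chain counts in aging injured 2, 83.3% were kappa.

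**Figure D2:**
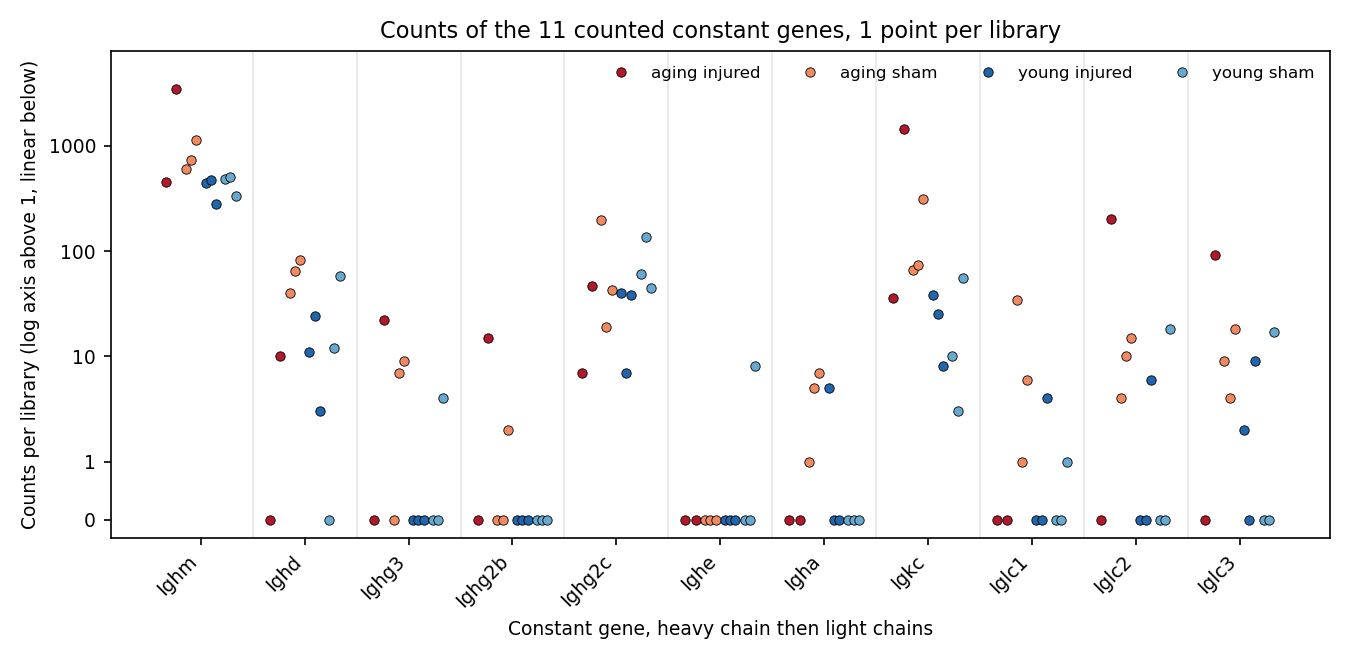
Counts of the 11 counted constant genes, 1 point per library, coloured by group, on an axis that is logarithmic above 1 count and linear below. Ighm lies between 282 and 3465 counts in all libraries, Igkc between 3 and 1458, and the other genes are at 0 in at least 1 library, except Ighg2c, whose lowest count is 7.

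Individual V segments were counted in few mice. Of the 86 counted V segments, 48 were seen in 1 library, 12 in 3 or more and 0 in more than 6. Segments seen only in aging valves numbered 56, those seen only in young valves 13 and those seen at both ages 17, while the aging valves held 2328 and the young valves 239 of the V counts. The counts by library were 15 and 1708 in aging injured valves, 102, 103 and 400 in aging sham valves, 19, 2 and 7 in young injured valves and 47, 15 and 149 in young sham valves.

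Igkv4-91, the kappa partner of the B-1 receptor named above, was the V segment with the most counts. It had 0 and 751 counts in aging injured valves, 39, 12 and 190 in aging sham valves, and 0 in all 3 young injured and all 3 young sham valves. It was the leading V segment of 4 of the 5 aging libraries, at 44.0% of V counts in aging injured 2 (exact binomial 95% interval 41.6% to 46.4%) and 38.2%, 11.7% and 47.5% in aging sham 1, 2 and 3. Taking the 0 of the 3 young sham valves together as 3 counts, its level in aging sham valves was at least 76.6-fold higher, and these groups did not overlap. The same floor gives at least 418-fold between aging and young injured valves, but aging injured 1 had 0 counts and these groups overlapped. Both bounds pool counts over mice and cover counting error only, not the spread between mice. Of the 241 aging sham counts 190 came from aging sham 3. Its closest V row by coding sequence was Igkv4-60 at 88.3% identity, and 94.8% of its 50-base stretches occurred in no other immunoglobulin row.

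Ighv12-3, the heavy chain partner, was the leading heavy V segment. It had 0 and 232 counts in aging injured valves, 7, 6 and 64 in aging sham valves, 0 in the 3 young injured valves and 0, 1 and 23 in young sham valves. Unlike Igkv4-91 it was thus counted in young valves, and it led the V counts of young sham 3 with 23 of 149. Both segments together took 57.6% of the V counts in aging injured 2, 45.1%, 17.5% and 63.5% in aging sham 1, 2 and 3, 6.67% in young sham 2, 15.4% in young sham 3 and 0% in the other 5 libraries. All 50-base stretches of Ighv12-3 were its own among immunoglobulin rows. The other segment pair known from phosphatidylcholine-binding mouse B-1 cells, Ighv11-2 and Igkv14-126, had 4 and 2 counts of Ighv11-2 in aging sham 2 and 3, and 4 counts in aging sham 3 and 1 in young injured 3 of Igkv14-126. Counts on both members of a pair in a whole valve do not show that they came from the same cells.

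By sex, Igkv4-91 was counted in 3 of 4 aging females and 0 of 3 young females, and in the 1 aging male and 0 of 3 young males. Ighv12-3 was counted in 3 of 4 aging females and 1 of 3 young females, and in the 1 aging male and 1 of 3 young males.

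The other leading V segments belonged mostly to single mice. Igkv3-2, Igkv3-10 and Iglv2 had 167, 116 and 154 counts in aging injured 2 and at most 3 in any other library. Ighv1-55 had 59 counts in aging injured 2, 6 in aging sham 2, 7 in aging sham 3 and 0 elsewhere. Igkv12-89 was counted in 5 libraries, with 46 counts in aging injured 2, 9 and 5 in aging sham 2 and 3, 12 in young injured 1 and 7 in young sham 3. Ighv1-64 was counted in aging injured 2 (23 counts) and young sham 3 (12 counts) only, and Igkv4-59 had 18 counts in aging injured 2, 1 each in aging sham 2 and 3, and 12 in young sham 3. Iglv1, the other counted lambda V segment, had 23 counts in aging sham 1, 2 and 3 in aging sham 2 and 3, and 0 in the other 8 libraries. All 47 V counts of young sham 1 fell on Igkv12-46, and all 15 of aging injured 1 on Ighv5-4. Counts of close relatives are less certain: Igkv3-10 shared 98.3% of its coding sequence with Igkv3-5, and 27.1% of the 50-base stretches of Igkv4-59 occurred in no other immunoglobulin row.

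**Figure D3:**
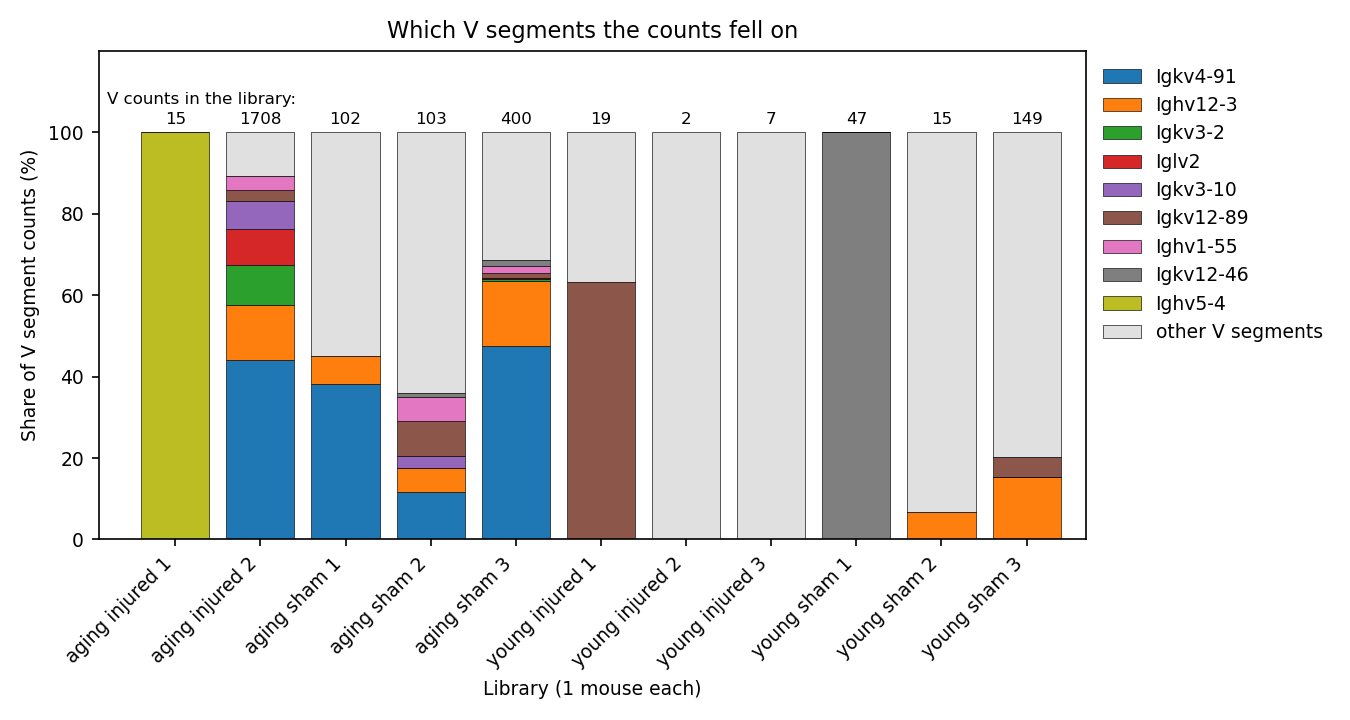
Share of V segment counts (%) that fell on 9 named V segments and on all others, by library, with the number of V counts above each bar. Igkv4-91 is in 4 of 5 aging libraries and no young library, and 6 libraries had fewer than 100 V counts.

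The library with the most V counts did not hold the most V segments. Aging injured 2 had 15 segments among 1708 counts, whereas aging sham 1, 2 and 3 had 13, 32 and 47 segments among 102, 103 and 400 counts and young sham 3 had 22 among 149. Brought to 100 counts by the exact expectation of drawing without replacement, these libraries held 11.8 segments in aging injured 2, 12.9, 31.6 and 25.9 in aging sham 1, 2 and 3 and 21.2 in young sham 3. The other 6 libraries had under 100 V counts and were not brought to this depth. At the same depth the valve with the most immunoglobulin counts thus held fewer V segments than aging sham 2 and 3 and young sham 3. Aging injured 2 is also among the 3 libraries in which the fewest genes of any kind were counted, and the other two, aging injured 1 and young sham 1, held 1 V segment each. Young injured 2, with 21107 genes counted, held 1 as well, and the part of gene detection in these numbers was not tested.

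J segments, whose sequences are given above, were counted mainly in aging injured 2. Ighj1 had 0 and 136 counts in aging injured valves, 5, 20 and 19 in aging sham valves, 0, 10 and 3 in young injured valves and 0, 2 and 0 in young sham valves. Igkj2 had 120 counts in aging injured 2, 6 in aging sham 3 and 0 in the other 9 libraries. Igkj5 had 0 and 1 in aging injured valves, 1, 11 and 12 in aging sham valves and 0 in all 6 young valves, so that the kappa J segment with the most counts differed between aging injured 2 and aging sham 2 and 3. Among lambda J segments Iglj2 and Iglj3 had 63 and 64 counts in aging injured 2, in the library where Iglv2 and Iglc2 were highest, and Iglj1 had 27. In aging sham 1, where Iglv1 and Iglc1 were highest, Iglj1 had 9 and Iglj3 3 counts. In the mouse lambda locus Iglv2 usually joins Iglj2 and Iglc2, and Iglv1 usually joins the Iglj3 and Iglc3 or the Iglj1 and Iglc1 pair. The 17-base D segment Ighd2-4 had 35 counts in aging injured 2 and 1 in aging sham 3. Iglj2 lies within the annotated span of Iglc2 on the same strand, and a long noncoding RNA, Gm30211, spans the kappa J segments and Igkc with 4 counts in all, so these rows can share reads.

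The test across all genes had little to work with at these counts: 17 of the 112 members passed the filter on low counts and entered the fit of 19366 genes. A segment that is high in 1 group passes this filter more readily than one that is low in all, so counts over the 17 are a description of the members that could be tested. They are Ighm, Ighd, Ighg2c, Ighg3, Igkc, Iglc2, Iglc3, Ighj1, Ighj2, Ighj4, Igkj5, Iglj2, Ighv1-64, Ighv12-3, Igkv12-89, Igkv4-59 and Igkv4-91. A call in edgeR's quasi-likelihood test took an adjusted p under 0.1 (Benjamini-Hochberg over all genes) together with a change of more than 2-fold, as the study's design text sets them.

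For injury in young valves, 0 of 17 members were called, against 0.418% of all genes tested, and 0 members had an unadjusted p under 0.05, against 9.19% of all genes. The members with the smallest p were Igkv4-59 and Ighv12-3, which had 0 counts in all young injured valves, with adjusted p of 0.60 in edgeR's test for each. DESeq2 and limma-voom also called 0 members. For injury in aging valves, 0 of 17 were called, against 0% of all genes, and 0 had an unadjusted p under 0.05, against 8.83% of all genes. The smallest p belonged to Ighd (log2 fold change -3.70 ± 1.81 SE, adjusted p = 0.601 in edgeR's test) and Ighm (1.15 ± 0.56, adjusted p = 0.602). DESeq2 and limma-voom called 0 here as well. Without aging injured 2 the fold change of Ighm became -0.72, and without aging injured 1 it was 1.93 and 2 members, Ighm and Iglv2, were called. That fit holds 1 aging injured library, which is assumed to vary like the other groups, and Iglv2, which is not among the 17, entered it with 154 counts in that library and 1 count elsewhere.

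For age in sham valves, 0 of 17 members were called in edgeR's test, against 0.0258% of all genes, and 2 of 17 had an unadjusted p under 0.05, against 9.19% of all genes. These were Igkj5 (log2 fold change 6.11 ± 2.06 SE, adjusted p = 0.483) and Igkv4-91 (9.46 ± 3.27, adjusted p = 0.49). Both had 0 counts in all young sham valves, so the size of the fitted change depends on the prior count and is no bound. DESeq2 called 1 member, Igkv4-91, and limma-voom 0. For age in injured valves, 0 of 17 were called, against 0.062% of all genes, and 7 of 17 had an unadjusted p under 0.05, against 12.5% of all genes. The smallest p belonged to Ighm (log2 fold change 2.36 ± 0.57 SE, adjusted p = 0.161 in edgeR's test) and Igkc (5.03 ± 1.42, adjusted p = 0.214). Without aging injured 2 their log2 fold changes were 0.49 for Ighm and 0.93 for Igkc. DESeq2 called Ighm, Igkc and Igkv4-91, limma-voom called 0, and edgeR called 7 members without aging injured 1, with the same limit of 1 aging injured library, and 0 without aging injured 2.

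The interaction of injury with age called 0 of 17 members, against 0% of all genes, and 3 of 17 had an unadjusted p under 0.05, against 7.86% of all genes. Ighv1-64 (log2 difference 11.81 ± 4.26 SE, adjusted p = 0.59 in edgeR's test) and Igkv4-59 (8.76 ± 3.51, adjusted p = 0.598) had the smallest p, and both were counted mainly in 1 aging injured and 1 young sham valve. Injury averaged over age called 0 of 17, against 0.594% of all genes, with 2 of 17 members at an unadjusted p under 0.05, against 11.5% of all genes. These were Ighg2c (-1.63 ± 0.71, adjusted p = 0.407 in edgeR's test) and Ighd (-2.49 ± 1.13, adjusted p = 0.432). DESeq2 and limma-voom called 0 members in both comparisons.

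Age averaged over surgery, a comparison added after the data had been seen, called 1 of 17 members, against 0.718% of all genes, and 7 of 17 had an unadjusted p under 0.05, against 15% of all genes. Ighm rose with age by a log2 fold change of 1.63 ± 0.39 SE (adjusted p = 0.0962 in edgeR's test) and was higher in all 5 aging than in all 6 young valves. Leaving out any 1 of the libraries except aging injured 1 ended this call, with adjusted p of 0.11 to 0.225. Igkc differed by 3.81 ± 0.95 (adjusted p = 0.109) and Igkv4-91 by 10.47 ± 2.29 (adjusted p = 0.117), both short of the threshold in edgeR's test. Without aging injured 2 the log2 fold changes were 0.70 for Ighm, 1.75 for Igkc and 4.73 for Igkv4-91. DESeq2 called 4 members (Ighj1, Ighm, Igkc and Igkv4-91) and limma-voom 0. Limma on the authors' RPKM values called 0, with Ighm at a log2 fold change of 1.32 (adjusted p = 0.206). Igkv4-91 had 0 counts in all 6 young valves, so the size of its fitted change depends on the method and is no bound. Its log2 fold change was 24.39 in DESeq2, 6.06 in limma-voom and 4.18 in limma on the RPKM values.

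B lineage genes were read beside the members because the segments are transcribed in B cells and plasma cells. Summed over Ms4a1, Cd79a, Cd79b and Cd22, which encode the B cell receptor's signalling chains and B cell surface proteins, the libraries held 12 and 169 counts in aging injured, 115, 142 and 332 in aging sham, 29, 38 and 62 in young injured valves and 9, 31 and 131 in young sham valves. Aging injured 2 was thus within the range of the aging sham valves for B cell genes, while its Igkc count was above theirs. It had 8.63 Igkc counts per count of these 4 genes and aging injured 1 had 3.00, against 0.57, 0.52 and 0.94 in aging sham 1, 2 and 3. Young injured valves had 1.31, 0.66 and 0.13 and young sham valves 1.11, 0.097 and 0.43. In aging injured 2 Cd79a was at 0 counts, with Ms4a1 at 24, Cd79b at 46 and Cd22 at 99.

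Jchain encodes the chain that links IgM and IgA into polymers and is made by plasma cells. It had 0 and 51 counts in aging injured valves, 16, 0 and 29 in aging sham valves, 0 in all young injured valves and 0, 3 and 16 in young sham valves. Aging injured 2 was thus the highest library for Jchain, as for Igkc. Of the other genes of the plasma cell list, Derl3 (38 counts, 1.11 CPM) and Irf4 (140 counts, 4.09 CPM) were also highest in aging injured 2. The next highest libraries stood at 0.71 CPM for Derl3 and 3.85 CPM for Irf4. The rest of the list was highest in other libraries. Mzb1, an endoplasmic reticulum protein of B and plasma cells, had 13 and 6 counts in aging injured valves, 11, 9 and 9 in aging sham valves, 15, 4 and 32 in young injured valves and 46, 33 and 31 in young sham valves. Tnfrsf17, the plasma cell receptor BCMA, had 12 and 0 counts in aging injured valves, 4, 17 and 15 in aging sham valves and 0 to 13 in young valves. Xbp1, a transcription factor of secretory cells, stood at 129 and 106 CPM in aging injured valves and 114, 127 and 117 CPM in aging sham valves. The 12 plasma cell genes summed to 232 and 251 CPM in aging injured, 226 to 236 CPM in aging sham, 269 to 302 CPM in young injured and 187 to 235 CPM in young sham valves. Pigr, the epithelial receptor that carries polymeric antibody, had 0 to 8 counts in every library. Rag1, Rag2 and Dntt, which act in the assembly of V, D and J segments, were at 0 counts in all libraries. The early B cell gene Vpreb1 was counted, with 18 counts for aging injured 1, 14 for young sham 2 and 13 for aging sham 1. Aging injured 2 and young injured 3 held 0 counts of Vpreb1, and the remaining libraries 1 to 9. Vpreb2 and Igll1, early B cell genes of the same list, were at 0 counts in all libraries. Of the 5 B-1 markers, Cd5 was at 0 counts in aging injured 2 and 25 in aging injured 1, and at 5 to 32 in the other libraries. Zbtb32 was at 0 in both aging injured valves and at 5, 9 and 9 in aging sham valves. Bhlhe41, a transcription factor that many tissues express, stood at 114 CPM in aging injured 2 and 51.1 to 99.7 CPM in the other libraries, and Spn at 12.2 CPM in aging injured 2 and 3.5 to 11.5 CPM in the others. Plscr1 stood at 18.8 and 16.6 CPM in aging injured valves and 9.65 to 20.2 CPM in the others. The 5 genes summed to 112 and 142 CPM in aging injured, 97.7 to 122 CPM in aging sham, 76.2 to 85.5 CPM in young injured and 71.9 to 101 CPM in young sham valves, mostly from Bhlhe41.

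**Figure D4:**
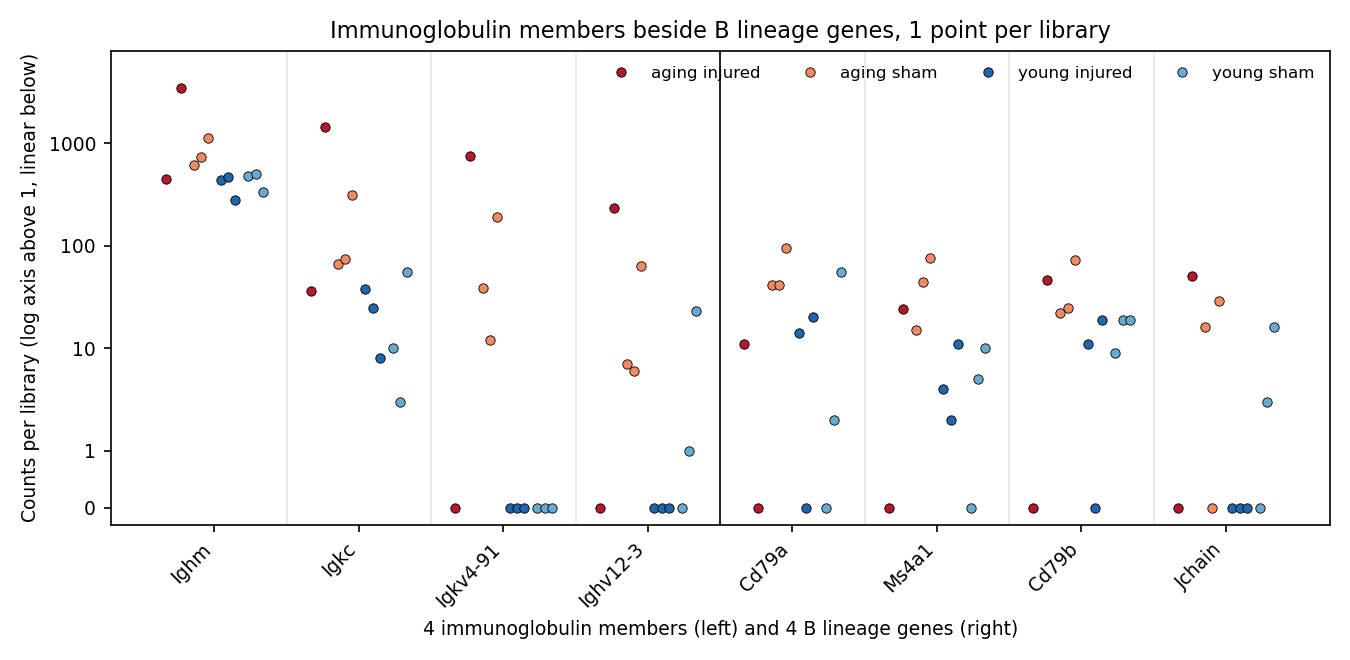
Counts per library of 4 immunoglobulin members (left of the line) and of 4 B lineage genes (right), 1 point per library, coloured by group, on an axis that is logarithmic above 1 count and linear below. Aging injured 2 is the highest library for Ighm, Igkc, Igkv4-91, Ighv12-3 and Jchain, and lies below aging sham 3 for Cd79a, Ms4a1 and Cd79b.

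Across the 11 libraries, log2(CPM + 1) of Igkc was set against 8 genes, with Benjamini-Hochberg adjustment over the 8. Jchain gave Pearson's r of 0.90 (permutation p = 0.00065, adjusted p = 0.0052) and Spearman's rho of 0.61 (permutation p = 0.0504, adjusted p = 0.101). Without aging injured 2 and aging sham 3, the libraries farthest from the median of Igkc, r was 0.52 over 9 libraries (exact permutation p = 0.165), so the relation rests on them. Ms4a1 gave r of 0.62 (permutation p = 0.0505, adjusted p = 0.112) and rho of 0.71 (permutation p = 0.0177, adjusted p = 0.049). Cd3e, a T cell gene, gave r of 0.61 (permutation p = 0.0365, adjusted p = 0.112) and rho of 0.71 (permutation p = 0.0184, adjusted p = 0.049). Lyz2, a gene of monocytes and macrophages, gave r of 0.57 (permutation p = 0.0608, adjusted p = 0.112). Cd79a gave r of 0.24 (permutation p = 0.489, adjusted p = 0.559), and r of 0.80 over 9 libraries without aging injured 2 and aging sham 3 (exact permutation adjusted p = 0.091). The plasma cell gene Mzb1 had a negative r of -0.52 (permutation p = 0.0937, adjusted p = 0.125). Hbb-bs, a globin that marks blood in the sample, gave r of 0.016 (permutation p = 0.962) and rho of 0.073 (permutation p = 0.837). Within the 6 sham valves, r was 0.94 for Cd79a and 0.92 for Ms4a1 (exact permutation adjusted p = 0.0194 each), 0.80 for Jchain (exact permutation adjusted p = 0.0844) 0.89 for Lyz2 (exact permutation adjusted p = 0.0111) and -0.64 for Mzb1 (exact permutation adjusted p = 0.259). Age separates these sham valves as well, and with 5 injured valves no value was computed among them.

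Lists of marker genes gave the following background. All 15 B cell genes were in the table, with 9 and 11 counted in aging injured, 14 to 15 in aging sham, 11 to 14 in young injured and 5 to 14 in young sham valves. Their summed level was 102 and 136 CPM in aging injured, 103 to 129 CPM in aging sham, 60.3 to 117 CPM in young injured and 89.7 to 102 CPM in young sham valves, most of it from Ebf1, which cells other than B cells also express. In each of the 7 comparisons 0 of 14 tested B cell genes, 0 of 9 tested Fc and transport receptors and 0 of 5 tested germinal centre genes were called by edgeR. Fcgrt, the receptor that protects IgG from breakdown, stood at 126 to 167 CPM in all libraries. Of 12 plasma cell genes, Fkbp11, a chaperone of the secretory pathway, rose with injury averaged over age (1.35 ± 0.31 on the log2 scale, adjusted p = 0.0998 in edgeR's test), and 0 others were called in the 7 comparisons. Tnfsf13b, which encodes the B cell survival factor BAFF, stood at 7.95 and 7.89 CPM in aging injured valves, 5.16, 7.80 and 6.72 CPM in aging sham valves, 2.54, 4.15 and 2.77 CPM in young injured valves and 3.86, 3.04 and 3.23 CPM in young sham valves. It rose with age averaged over surgery by 1.14 ± 0.21 on the log2 scale (adjusted p = 0.0429 in edgeR's test), with every aging valve above every young valve. Of the 5 tested lymph node stroma and follicular dendritic cell genes, 4 had a positive change in this comparison and 1, Tnfsf13b, was called. Tnfsf13 of the same list stood at 8.74 to 15.0 CPM in aging and 8.33 to 15.0 CPM in young valves.

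Markers of other cells moved with some of these values. The 8 T cell genes summed to 16.8 and 11.8 CPM in aging injured, 11.9 to 14.6 CPM in aging sham, 4.64 to 6.51 CPM in young injured and 5.16 to 9.66 CPM in young sham valves, so that all aging valves were above all young ones, with 7 of 8 genes counted in each aging injured valve and 0 of 8 called in any comparison. The 6 adipocyte genes summed to 186 and 510 CPM in aging injured, 70.8 to 145 CPM in aging sham, 54.8 to 276 CPM in young injured and 132 to 265 CPM in young sham valves. All 6 were counted in aging injured 2, where Cfd, an adipocyte-secreted protease, had 9126 counts. The 6 erythroid genes summed to 15.5 and 46.9 CPM in aging injured, 31.9 to 44.5 CPM in aging sham, 13.0 to 60.3 CPM in young injured and 21.2 to 97.6 CPM in young sham valves, with the highest value in young sham 3 and not in aging injured 2. Of 7 lymph node stroma and follicular dendritic cell genes, Cxcl13, a B cell chemoattractant, had 68 and 7 counts in aging injured, 69, 71 and 283 in aging sham, 8, 37 and 22 in young injured valves and 0, 36 and 73 in young sham valves. Madcam1, a vascular adhesion molecule of mucosal lymphoid tissue, had 0 and 27 counts in aging injured, 0, 3 and 4 in aging sham, 1, 0 and 0 in young injured valves and 0 in young sham valves, and was thus highest in aging injured 2. The 7 genes summed to 28.2 and 19.6 CPM in aging injured, 21 to 34.3 CPM in aging sham, 14.3 to 24.3 CPM in young injured and 19.5 to 23.3 CPM in young sham valves. The part of T cell, adipose or lymphoid tissue in the immunoglobulin values was not tested.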

How the data were processed

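Whole aortic valves of 11 mice were profiled by RNA sequencing, per the labels' protocols from DNase-treated total RNA. TopHat2 version 2.1.0 and the mm10 build are named in the submitters' processing notes. How genes were counted, with which annotation and use of strand, is not given in the sources used here. The authors deposited raw counts per gene with no normalization, used for all main values, and RPKM values (reads scaled to gene length and library size) for 13526 genes, 19 of them immunoglobulin rows, used as an alternative with log2(RPKM + 0.1). V, D and J segments are rearranged and can be mutated in B cells, and how reads across such junctions or over near-identical segments were assigned is not given, so V, D and J counts hold the reads that were assigned to a germline segment. Among the deposited library columns, 1 matched no sample label and was left out. Coordinates of 427 of 429 immunoglobulin rows were identical in GENCODE mouse release 21.

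Counts were tested with edgeR 4.0.16 in R 4.3.3 (quasi-likelihood F test, TMM scaling, filterByExpr with its minimum count of 10, all 11 libraries in 1 fit of 4 group means, Benjamini-Hochberg adjustment over 19366 genes). The standard error (SE) is the absolute log2 fold change over the square root of F. The fit was tested on simulated data. CPM are counts scaled to library size with TMM factors. DESeq2 1.42.0, limma 3.58.1 with voom, other scalings, no filter, a replicate block, 2-group fits and leaving out each library were alternatives. Pearson's and Spearman's coefficients used 100000 permutations, or all of them under 10 libraries (scipy 1.17.1). Sequence identity came from Biopython 1.88. Bounds take a group at 0 as 3 counts; intervals are at 95% and cover counting error only. Each label is 1 mouse, and p-values measure the spread between these mice.

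The members, lists and comparisons were chosen with earlier results of these data known. Genes were named by rule: all constant genes, the 3 V segments per locus with the highest mean CPM, the 2 members with the smallest p in a comparison without calls, called members, and defining genes of the marker lists. Igkv12-46, Ighv5-4, Ighv11-2, Igkv14-126, the J and D segments, Tnfsf13b, further genes of the plasma cell, B-1 and lymph node lists and the age comparison averaged over surgery were chosen after their values had been seen. Vpreb1, Vpreb2 and Igll1 were also chosen in this way.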

Additional observations from a re-analysis of the deposited data

How the results depend on the processing

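In place of 0 members called, DESeq2 called 1 for age in sham valves and 3 for age in injured valves. For age averaged over surgery, in place of 1, DESeq2 called 4, no filter gave 3, and limma-voom, the replicate block and limma on the authors' RPKM values 0 each. Leaving out 1 library at a time gave 0 to 6 members for age averaged over surgery, 0 to 7 for age in injured valves, 0 to 2 for injury in aging valves, and 0 in the other 4 comparisons. Deviations of the libraries from their group means had correlations of -0.13 to 0.25 in 15 pairs of the same replicate number and -0.23 to 0.26 in 30 others. In groups this small the deviations depend on one another, so these values cannot decide whether replicate numbers pair the samples. The replicate block changed no other count of members called.

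For the summed CPM, the log2 ratio with V segments only was -3.28 for injury in young valves and 6.58 for age in injured valves. Leaving out 1 library gave -1.34 to 2.26 for injury in aging valves (negative without aging injured 2), 0.37 to 3.97 for age in injured valves, -0.80 to -0.44 for injury in young valves and 0.52 to 1.28 for age in sham valves. With V segments only it gave -3.66 to 3.07 for injury in aging valves (negative without aging injured 2), 1.02 to 7.57 for age in injured valves, -4.21 to -1.79 for injury in young valves and 0.22 to 2.88 for age in sham valves; these, the ratio of Igkc counts without single libraries and the RPKM calls were added after seeing the data. The ratio of Igkc counts ran between 1.87 and 62.4 for age in injured valves and 2.73 and 24.1 for age in sham valves. Ighm after injury in aging valves also reversed without aging injured 2, with log2 fold changes of -0.72 to 1.93 over the libraries left out. The number of 8 Igkc relations at an adjusted p under 0.1 was 1; it was 6 with log2(CPM + 0.1) and 2 without the 2 libraries farthest from the median of Igkc, and the r of Igkc with Hbb-bs became -0.013 with log2(CPM + 0.1). The other 164 values recomputed for the counts, sums and relations were taken as unchanged. A sum was taken as unchanged when its log2 ratio moved by less than the pooled SD of the libraries. A number of members called was taken as unchanged when it was equal or close to the main one. The cause of the changes above was not tested. With 2 aging injured mice, aging injured 2 sets that group's mean for Ighm, Igkc and the V segments. At this depth 95 of the 112 members were below the filter on low counts and were not tested.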

Other observations

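Of 161 immunoglobulin pseudogene rows, the 11 libraries held 7 counts in all, against 15787 on the 112 members. Of the 86 V segments, 29 had their highest count in aging sham 3, 15 in young sham 3, 14 in aging injured 2 and 13 in aging sham 2.

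By V family, as named in the symbols, Igkv4 segments held 1079 counts on 14 counted segments, of which 771 came from aging injured 2 and 200 from aging sham 3. The Igkv3 family held 319 counts on 8 segments, 283 of them in aging injured 2. The Ighv1 family, the largest of the mouse heavy chain locus, held 244 counts on 15 segments, with 170 in aging injured 2, 17, 15 and 22 in aging sham 1, 2 and 3, 4 in young sham 2, 16 in young sham 3 and 0 in the other 5 libraries.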
